A study of Mus musculus with 96 samples.

Results

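The CoREST and LSD1 complex genes were followed here as a group of 6 genes: the scaffold genes Rcor1, Rcor2 and Rcor3, the histone demethylase gene Kdm1a (LSD1), and the histone deacetylase genes Hdac1 and Hdac2. They were taken by symbol from the 37620 gene rows that each of the 7 RNA-seq count tables holds, and all 6 passed the filter on low counts in every table. Their Ensembl identifiers are ENSMUSG00000037896 (Rcor1), ENSMUSG00000024968 (Rcor2), ENSMUSG00000037395 (Rcor3), ENSMUSG00000036940 (Kdm1a), ENSMUSG00000028800 (Hdac1) and ENSMUSG00000019777 (Hdac2). In addition, 191 of the 316354 peaks in 14 ChIP-seq peak lists lay on these genes or within 5 kb of them. The cells were mouse embryonic stem cells (ESCs) grown in serum and LIF, of the lines R1, J1, the R7.15 line with floxed Rybp and the rTRS line, and RYBP, the protein perturbed in most of the comparisons, is a subunit of Polycomb repressive complex 1 that carries RING1B.

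Each RNA-seq comparison had 2 libraries per group, 26 libraries in all of the 96 samples of the series. In the R1 line, shEV (empty vector) was compared with shRybp and, in a second table, with shWdr5, and both tables hold the same shEV libraries. WDR5 is a core subunit of the H3K4 methyltransferase complexes. In the Rybp-floxed R7.15 line, Rybp+/+ cells were compared with Rybp-/- cells made by 5 µM 4-hydroxytamoxifen (4-OHT) for 4 days. The Rybp+/+ cells carry the floxed alleles too, so the drug and the deletion cannot be told apart in that comparison. A second R7.15 table compared WT.RYBP with RYBP phase disruption. Both of its groups carry RYBPfl/fl and Rosa26::CreERT2 and received 4-OHT; the first overexpresses WT RYBP and the other carries the RYBP.21aa deletion. The remaining tables compared WT ESC with TF-AA mutation in R1, vehicle with doxycycline (DOX) in the J1 line Tet on.RYBP, and the control labelled NTC with DOX in the rTRS line, whose label gives a DOX-induced Rybp_Stat3 integration. The ChIP-seq lists cover H3K4me3, H3K27ac, WDR5 and STAT3 in Rybp+/+ and Rybp-/- cells of R7.15, RING1B in R1 with shEV and shStat3 (Stat3 knockdown), and RING1B and STAT3 without and with DOX (DOX- and DOX+) in Tet.Rybp.Stat3 cells, labelled as R1 with a DOX-induced Rybp_Stat3 integration. Nothing in the labels says that the libraries of a group came from separate cultures, so p-values measure the spread between these libraries only, and each engineered line may be a single clone.

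CoREST proteins are scaffolds. They bind LSD1 and a deacetylase, HDAC1 or HDAC2, and hold both enzymes on the nucleosome, where the deacetylase removes acetyl groups from histone tails and LSD1 removes mono- and dimethyl groups from lysine 4 of histone H3. Without CoREST, LSD1 acts poorly on nucleosomes. The complex is brought to DNA by transcription factors, of which REST, the repressor of neuronal genes outside the nervous system, is the classical one, and in ESCs LSD1 is known for silencing enhancers of the pluripotent state during differentiation. HDAC1 and HDAC2 also serve the NuRD, SIN3 and MiDAC complexes, so their mRNA levels are not specific to CoREST.

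Between 14512857 and 81049618 counts per library fell on genes. The pluripotency markers Pou5f1, Nanog, Sox2, Zfp42, Esrrb, Klf4, Tdgf1 and Dppa5a were all tested in every table, with a summed level of 3560 to 7560 CPM (counts scaled to a common library size with TMM normalization) per library. The targeted genes moved with their labels in the knockdown, knockout and Tet on.RYBP libraries. Rybp went from 85.7 and 86.4 CPM with shEV to 35.8 and 36.6 with shRybp, from 110 in both Rybp+/+ libraries to 24.8 and 25.0 in Rybp-/-, and from 135 and 145 with vehicle to 522 and 535 with DOX. Wdr5 went from 350 and 343 to 60 and 58.2 with shWdr5. In rTRS, by contrast, Rybp stood at 113 and 110 CPM in NTC and 102 and 99.8 CPM in the libraries labelled DOX, and Stat3 at 159 and 172 against 191 and 188, so directions in that comparison are given for the libraries labelled DOX. Counts over the whole gene cannot show a point mutation or a short deletion, which leaves the TF-AA and phase disruption labels unchecked.

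The members were expressed at very different levels. On the scale of CPM per kilobase of exon, which allows genes to be compared, Rcor3 was lowest in every control group, at 0.901 to 2.13, followed by Rcor1 at 9.48 to 14.4 and Hdac2 at 21.9 to 58.9. Hdac1 (68.7 to 127), Kdm1a (54.3 to 93.6) and Rcor2 (49.1 to 178) shared the first 3 places, and which of them led differed between tables. Rcor2 led in the R1 shEV libraries, Hdac1 in both R7.15 tables, in WT ESC and in J1, and Kdm1a in rTRS. Rcor2 was therefore the most abundant CoREST scaffold mRNA in the control groups of all 7 tables, 2 of which hold the same shEV libraries. Its libraries overlapped those of Kdm1a in the phase disruption and TF-AA tables and those of Hdac2 in rTRS, so the order of these neighbours is not set by the replicates. These levels were set across tables that were normalized separately.

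**Figure D1:**
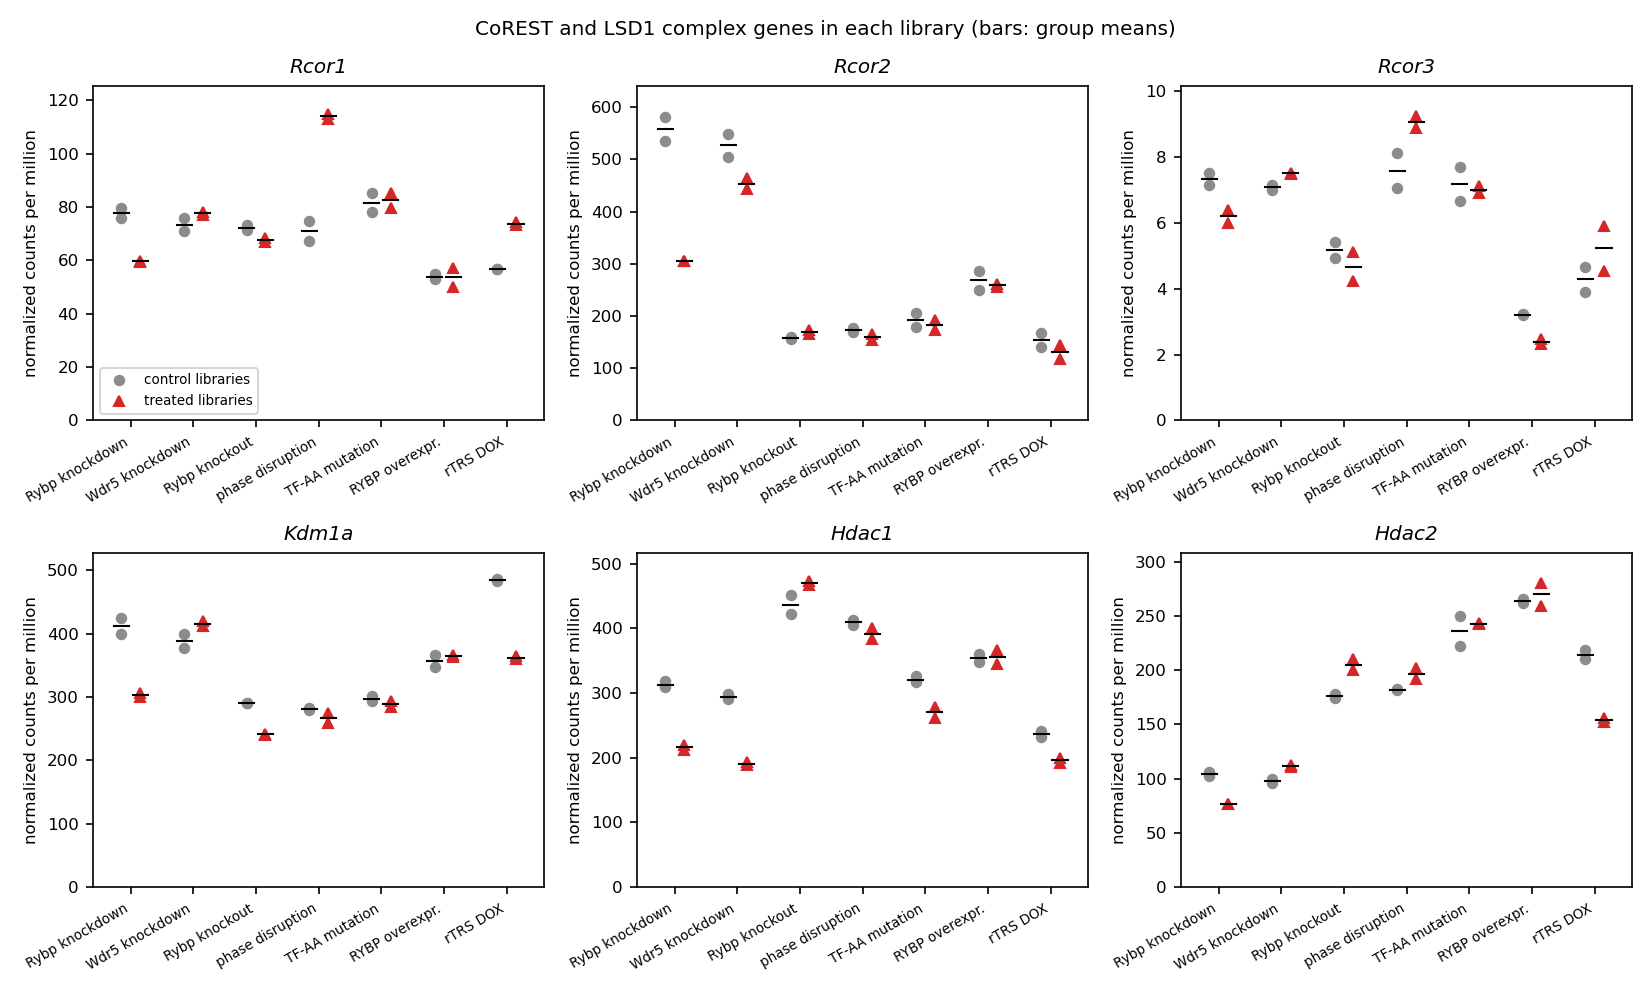
Normalized CPM of each member in every library, with control libraries as grey circles, treated libraries (knockdown, knockout, mutation or DOX) as red triangles and group means as bars; each panel has its own linear axis from 0. The triangles lie below the circles for all 6 genes in the Rybp knockdown, and Rcor1 in the phase disruption libraries stands at 113 and 115 against 74.6 and 67.1.

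Rybp knockdown lowered 5 of the 6 members. Rcor2, the scaffold most abundant in these cells, stood at 535 and 581 CPM with shEV but only 306 and 305 with shRybp. Both knockdown libraries were far below both controls, a log2 fold change of -0.87 ± 0.05 (SE, n = 2 libraries per group) with an adjusted p of 2.2e-11 in the edgeR quasi-likelihood fit. That p, like every adjusted p below, carries a Benjamini-Hochberg correction for all genes of the table. Rcor1, the founding member of the family, had 75.8 and 79.6 CPM against 59.9 and 59.2, a change of -0.38 ± 0.06. The demethylase gene Kdm1a had 400 and 424 CPM against 306 and 300, a change of -0.44 ± 0.04. The deacetylase genes moved the same way: Hdac1 had 318 and 309 CPM against 220 and 212 (-0.54 ± 0.05), and Hdac2 had 106 and 102 against 76.5 and 76.9 (-0.44 ± 0.05). Rcor3, at 7.5 and 7.2 against 6.4 and 6.0 CPM, was the one member that did not pass the test (-0.24 ± 0.14, adjusted p = 0.17).

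In this comparison 26% of all genes tested were called lower and 26.8% higher, 52.7% in either direction, and the groups did not overlap for 75.6% of genes. The median change of the members was -0.44, beside 0.02 over all genes. Scaling matters here: with library size alone the median of all genes moved to 0.18 and 71.2% of the called genes were higher, against 50.8% with TMM. On that scale Rcor2 stood at -0.71, Hdac1 at -0.38, Kdm1a at -0.29, Hdac2 at -0.28 and Rcor1 at -0.23, all still called lower. Of 8 fibroblast markers, the 4 that passed the filter were all called higher, with a summed level of 18.6 to 18.9 CPM in shEV and 31.4 to 32.2 in shRybp, and 4 did not pass it, Col3a1, Dcn, Lum and Postn. Other markers moved too: Pou5f1 fell from 1080 and 1100 to 679 and 699 CPM, with 3 of 8 pluripotency markers lower and 4 higher, 2 of 4 neural progenitor markers were higher and 1 lower, and 1 of 5 mesoderm markers was higher and 1 lower. Nes rose from 14.3 and 15.4 to 41.4 and 45.3 CPM and Pax6 fell from 5.66 and 5.95 to 2.55 and 3.50, while Hand1 rose from 1.09 and 0.571 to 9.10 and 9.16 and Eomes fell from 13.7 and 16.1 to 9.26 and 10.3. Of 5 primitive endoderm markers, 3 were higher and 1 lower. The part of these markers in the result was not tested.

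**Figure D2:**
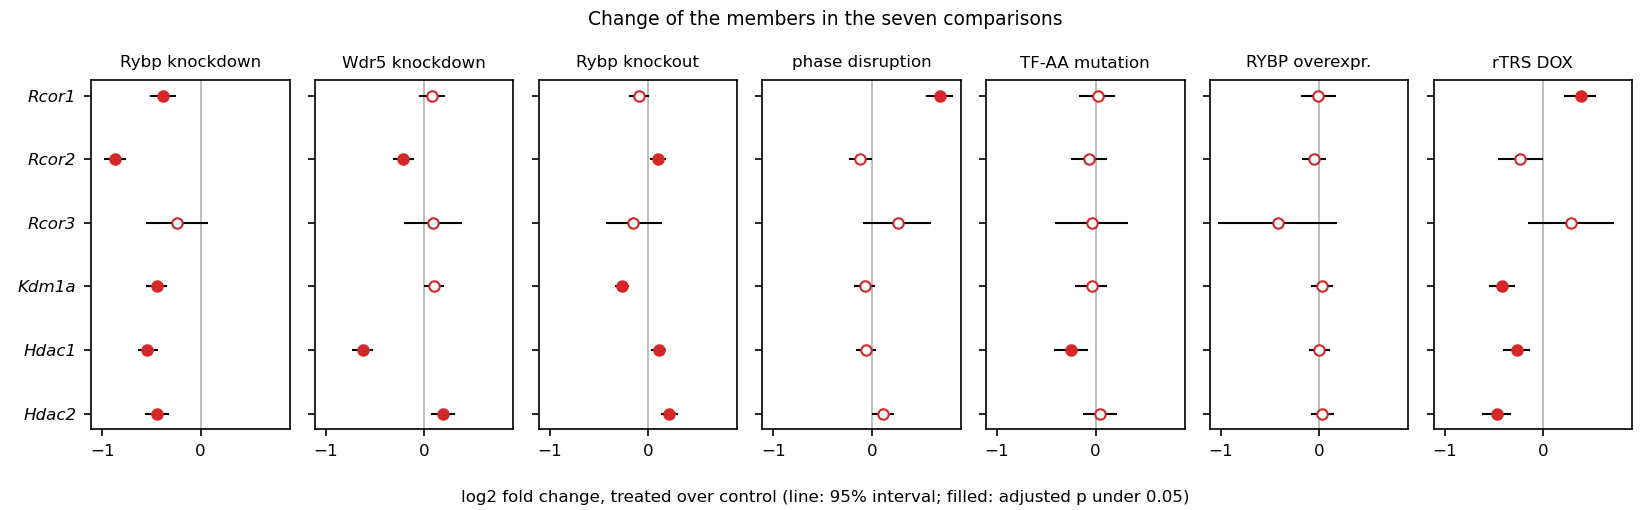
Log2 fold change of each member in each of the 7 comparisons, treated over control, as points with 95% intervals from edgeR's quasi-likelihood fit; filled points passed an adjusted p of 0.05. Filled points lie to the left for 5 members in the Rybp knockdown, while the only filled point in the phase disruption panel is that of Rcor1 at 0.69.

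After Rybp knockout, the same genes did not fall together. Kdm1a fell from 290 and 291 CPM to 242 and 240 (-0.27 ± 0.03, adjusted p = 1.6e-08). Hdac2, in contrast, rose from 178 and 174 CPM to 200 and 210 (0.21 ± 0.03, adjusted p = 4.7e-06). Hdac1 was at 452 and 423 against 468 and 474 CPM (0.11 ± 0.03, adjusted p = 0.0058), and Rcor2 at 156 and 159 against 173 and 165 (0.10 ± 0.04, adjusted p = 0.021). These 2 higher calls are small and rest on single libraries. Hdac1 was not called without replicate 2 of Rybp+/+ (0.06) or of Rybp-/- (0.10), and Rcor2 was not called without replicate 1 of Rybp+/+ (0.08) or of Rybp-/- (0.07), nor with no filter on low counts (0.09).

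Rcor1 had 71.2 and 73.1 CPM in Rybp+/+ and 67.0 and 68.3 in Rybp-/- (-0.09 ± 0.04, adjusted p = 0.08), and was called lower only without replicate 1 of Rybp+/+ (-0.12). Rcor3 had 5.42 and 4.93 CPM against 5.11 and 4.24 (-0.15 ± 0.14). Thus 1 member was called lower and 3 higher, where 22.7% of all genes were called lower and 22.8% higher, 45.5% in all. All 8 fibroblast markers were tested here and 7 were called higher, with a summed level of 56.9 to 57.9 CPM in Rybp+/+ and 116 to 122 CPM in Rybp-/-. Of 8 pluripotency markers 5 were higher and 2 lower, of 5 primitive endoderm markers 2 were higher, of 4 neural progenitor markers 2 were higher and 1 lower, and of 3 mesoderm markers 1 was higher. The part of these markers in the members' values was not tested.

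The effects of knockdown and knockout were compared directly in 1 fit over the libraries of both tables, a test chosen after seeing the data. The log2 fold change was lower with knockdown for 5 of the 6 members. Knockdown minus knockout was -0.99 ± 0.06 for Rcor2, -0.68 ± 0.06 for Hdac2, -0.67 ± 0.05 for Hdac1, -0.31 ± 0.07 for Rcor1 and -0.20 ± 0.05 for Kdm1a, and -0.12 ± 0.20 for Rcor3, which was not called. Over all 18203 genes tested, 40.5% differed in either direction. With library size alone, Rcor2, Hdac1 and Hdac2 remained called (-0.83, -0.51 and -0.52), and Rcor1 (-0.16) and Kdm1a (-0.04) were no longer called. The comparisons also differ in cell line, in the way RYBP was removed and in sequencing table, which cannot be told apart from the kind of RYBP loss.

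Wdr5 knockdown, measured against the same shEV libraries, separated the deacetylase genes. Hdac1 fell from 298 and 291 CPM to 189 and 194 (-0.62 ± 0.05, adjusted p = 4.1e-11), whereas Hdac2 rose from 100 and 95.7 to 113 and 111 (0.19 ± 0.05, adjusted p = 0.0036). Rcor2 was lower, at 505 and 549 CPM against 443 and 464 (-0.22 ± 0.05, adjusted p = 0.00027). Kdm1a had 378 and 400 CPM against 420 and 412 (0.10 ± 0.04, adjusted p = 0.059), and was called higher with DESeq2 size factors (0.10), with a replicate block (0.10) and without replicate 2 of shEV (0.14). Rcor1 (0.08 ± 0.06) and Rcor3 (0.09 ± 0.14) did not pass the test. So 2 members were called lower and 1 higher in a comparison where 31.5% of genes were called in each direction, 63% in all, and the groups did not overlap for 81% of genes. For Hdac1 the values stand side by side as -0.54 with shRybp, -0.62 with shWdr5 and 0.11 in Rybp-/-. Wdr5 itself was lower with shRybp, at 372 and 364 against 265 and 260 CPM (-0.49 ± 0.04), and in Rybp-/- (-0.14 ± 0.03). Rybp was higher with shWdr5 (0.56 ± 0.05). The part of these changes in the Hdac1 values was not tested. The shRybp and shWdr5 values share their controls. Markers moved beside them: 5 of 8 pluripotency markers were lower and 2 higher, with Pou5f1 from 1010 and 1030 to 615 CPM in both libraries, and 4 of 5 primitive endoderm markers were higher and 1 lower, with Gata6 from 2.29 and 2.68 to 18.9 and 17.8 CPM. Of 3 fibroblast markers tested, Thy1 fell from 11.2 and 10.9 to 2.43 and 3.46 CPM and Col1a1 rose from 5.89 and 6.63 to 11.9 and 11.7. Of 4 neural progenitor markers 2 were higher and 1 lower, and of 4 mesoderm markers 1 was higher and 2 were lower. Their part in the members' values was not tested.

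Disruption of the RYBP phase changed a single member, Rcor1. The WT.RYBP libraries had 74.6 and 67.1 CPM and the RYBP phase disruption libraries 113 and 115, so every library of the second group was above every library of the first. The log2 fold change was 0.69 ± 0.06 (adjusted p = 1.1e-10), the largest rise of any member in the 7 comparisons. The other members did not pass the test: Rcor2 was at 170 and 177 against 155 and 165 CPM (-0.12 ± 0.05), Hdac2 at 182 and 183 against 202 and 192 (0.11 ± 0.05), Kdm1a at 279 and 283 against 275 and 259, Hdac1 at 413 and 406 against 401 and 384, and Rcor3 at 8.12 and 7.05 against 9.23 and 8.88. Hdac2 was called higher with library size alone (0.17), and both Hdac2 (0.15) and Rcor2 (-0.16) were called without replicate 2 of RYBP phase disruption; a replicate block called both as well (0.11 and -0.12). Among all genes, 16.1% were called higher and 17% lower, 33% in all. The RYBP transgenes were not equal in level, with Rybp at 749 and 753 CPM in WT.RYBP and 662 and 626 in RYBP phase disruption. Of 4 mesoderm markers tested, Hand1 rose from 3.27 and 2.93 to 19.3 and 20.6 CPM and T fell from 15.4 and 20.0 to 6.72 and 6.86. Fibroblast markers, all 8 tested, were called lower for 3 and higher for none, with a sum of 427 to 432 CPM in WT.RYBP and 345 to 369 in RYBP phase disruption. Of 8 pluripotency markers 1 was higher and 2 lower, of 3 neural progenitor markers 1 was higher and 1 lower, and of 4 primitive endoderm markers 1 was higher. The part of any of these in the Rcor1 value was not tested.

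In TF-AA mutation cells, Hdac1 was lower, at 326 and 317 CPM in WT ESC and 278 and 262 in the mutant (-0.25 ± 0.08, adjusted p = 0.013), beside 16.1% of all genes called lower, 14.4% called higher and 30.5% in all. The call was lost without either mutant library, at -0.29 without replicate 1 and -0.21 without replicate 2. For the other 5 members the libraries of the groups overlapped and changes ran from -0.07 to 0.04. Their 95% intervals lay between -0.24 and 0.21, apart from that of Rcor3, which ran from -0.40 to 0.32. The 3 fibroblast markers tested were all called higher, with a sum of 11.0 to 11.7 CPM in WT ESC and 24.0 to 24.7 in the mutant. Of 8 pluripotency markers 2 were higher and 1 lower, Dppa5a, which fell from 793 and 712 to 533 and 508 CPM. Of 3 neural progenitor markers 1 was lower and 1 higher, Nes, from 16.2 and 20.2 to 28.5 and 29.1, and of 3 primitive endoderm markers 1 was higher, Sox7, from 6.21 and 5.73 to 10.9 and 11.5. The part of these markers in the Hdac1 value was not tested.

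RYBP overexpression by DOX called no member: 0 of 6 passed edgeR's quasi-likelihood test, 0 had an unadjusted p under 0.05 and 0 were called by DESeq2, in a comparison where 6.02% of all genes were called, 3.63% higher and 2.39% lower. Rcor2 had 287 and 249 CPM with vehicle and 261 and 256 with DOX (-0.05 ± 0.06), and was called lower only without replicate 2 of vehicle (-0.15). Kdm1a had 347 and 367 against 363 and 366, Hdac1 361 and 348 against 366 and 345, Hdac2 262 and 266 against 259 and 281, and Rcor1 52.9 and 54.9 against 57.2 and 50. For these 5 genes the 95% intervals lay between -0.18 and 0.16. Rcor3, at 3.21 and 3.22 against 2.46 and 2.32 CPM, did not overlap between the groups, as 48.1% of all genes did not, and its interval ran from -1.02 to 0.17 (-0.42 ± 0.29, adjusted p = 0.47).

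The rTRS libraries labelled DOX had lower Kdm1a, Hdac1 and Hdac2 and higher Rcor1. The column taken as replicate 2 of DOX starts with S5 in place of rTRS, and was matched by its table, treatment and replicate number only. Without it the same 4 members were called, at -0.43, -0.30, -0.45 and 0.37, while Rcor2 moved to -0.08. Kdm1a went from 486 and 483 CPM to 360 and 365 (-0.42 ± 0.05, adjusted p = 4.8e-05), Hdac2 from 210 and 219 to 156 and 152 (-0.47 ± 0.06, adjusted p = 4.5e-05) and Hdac1 from 241 and 232 to 192 and 200 (-0.27 ± 0.06, adjusted p = 0.0027). Rcor1 rose from 56.9 and 56.8 to 73.2 and 74.4 (0.38 ± 0.07, adjusted p = 0.00084). Rcor2 had 167 and 140 against 145 and 117 CPM, overlapping groups (-0.23 ± 0.10, adjusted p = 0.085). It was called lower with a replicate block (-0.23), and also with no filter (-0.23), without replicate 2 of NTC (-0.35) and without replicate 1 of DOX (-0.40). Rcor3 stood at 3.91 and 4.67 against 4.54 and 5.91 CPM. Here 20.4% of all genes were called lower and 23% higher, 43.4% in all. Pluripotency markers moved as well, 6 of 8 called lower with a sum of 5920 to 6150 CPM in NTC and 3560 to 3750 with DOX, and 3 of 5 mesoderm markers were called higher, with a sum of 13.1 to 16 against 62.4 to 69 CPM. Of 3 neural progenitor markers 2 were higher and 1 lower, of 3 fibroblast markers 1 was higher and 1 lower, and of 5 primitive endoderm markers 1 was lower. Their part in the members' values was not tested, and a change in the mix of cells cannot be told apart from a change per cell in any of these bulk libraries.

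Among the proteins that bring CoREST to DNA or join it, Rest was called in all 7 comparisons. It was lower in 6. The libraries had 433 and 441 CPM with shEV against 273 and 277 with shRybp (-0.67 ± 0.04, adjusted p = 2.9e-10). In Rybp-/- it went from 374 and 392 to 313 and 317 (-0.28 ± 0.03), and with Wdr5 knockdown from 407 and 416 to 330 and 322 (-0.34 ± 0.04). TF-AA mutation took it from 440 and 444 to 321 and 329 (-0.44 ± 0.07), phase disruption from 382 and 373 to 326 in both libraries (-0.21 ± 0.04), and rTRS DOX from 244 and 277 to 156 and 171 (-0.67 ± 0.07). With RYBP overexpression Rest rose instead, from 547 and 579 CPM to 933 and 938 (0.73 ± 0.04, adjusted p = 2.7e-14). Its groups did not overlap in any comparison. Of all genes, 48.1% (RYBP overexpression) to 81% (Wdr5 knockdown) did not overlap, and 6.02 to 63% were called in the same comparisons. The direction and the call of Rest held under each of the 9 alternatives run in each comparison. Its values with shRybp and shWdr5 rest on the same shEV controls. Rest was singled out from its list after its values were seen.

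**Figure D3:**
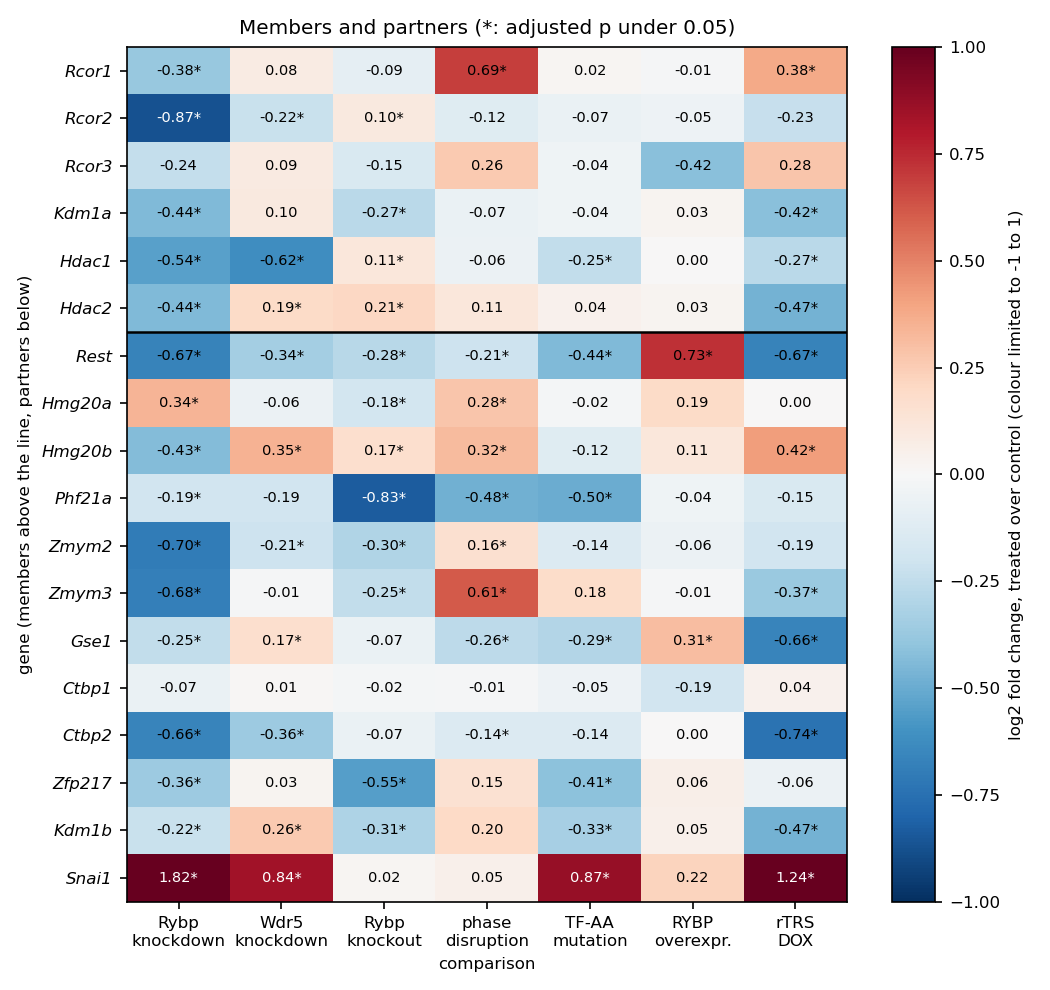
Log2 fold change, treated over control, of the 6 members (above the line) and 12 partner genes (below) in the 7 comparisons; blue is lower, red is higher, colour is limited at -1 and 1 and an asterisk marks an adjusted p under 0.05. The Rest row carries an asterisk in every column, blue in 6 and red with RYBP overexpression, while the Ctbp1 row carries none.

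The list of 15 CoREST partners, of which 12 to 14 passed the filter, was called higher and lower as follows. With Rybp knockdown 2 of 13 tested were higher and 9 lower, and in the knockout 1 of 14 was higher and 8 lower. Of all genes, 26.8% were higher and 26% lower in the first and 22.8% and 22.7% in the second. Median changes were -0.25 and -0.27, beside 0.02 and 0.00 over all genes. With library size alone, the lower calls of Gse1, Kdm1b and Phf21a in the knockdown were lost. Zmym2 and Zmym3, zinc-finger subunits of LSD1 complexes, were lower in both, with log2 fold changes of -0.70 and -0.68 in the knockdown and -0.30 and -0.25 in the knockout. Phf21a (BHC80), the reader of unmethylated H3K4 in the complex, went from 71.5 and 70.1 to 39.6 and 40.2 CPM in Rybp-/- (-0.83 ± 0.05, adjusted p = 7.4e-16). Zfp217, a DNA-binding partner of CoREST, went from 75.4 and 78.4 to 52.3 and 52.9 CPM there (-0.55 ± 0.04). Snai1, which uses LSD1 to repress epithelial genes, rose with shRybp from 5.08 and 5.52 to 19.3 and 18.1 CPM (1.82 ± 0.12), and the corepressor gene Ctbp2 fell from 299 and 295 to 190 and 185 (-0.66 ± 0.05).

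In the other tables the partners divided. Wdr5 knockdown called 5 of 13 higher and 3 lower, close to the 63% of all genes called there. The largest change was that of Insm1, a neuroendocrine repressor that recruits LSD1, which rose from 1.78 and 2.43 to 8.65 and 7.68 CPM (1.96 ± 0.19). Phase disruption called 4 of 13 in each direction, where 33% of all genes were called, and Zmym3 rose there from 47.1 and 46.0 to 67.8 and 74.0 CPM (0.61 ± 0.07), opposite to its fall in the knockdown. TF-AA mutation called 1 of 12 higher and 5 lower (14.4% and 16.1% of all genes), with Phf21a again lower, at 55.3 and 55.2 against 39.5 and 38.4 CPM (-0.50 ± 0.09). The higher call, of Snai1, and the lower calls of Gse1 and Kdm1b were lost when either mutant library was left out. The rTRS DOX libraries had 3 of 13 higher and 5 lower (23% and 20.4% of all genes), with Ctbp2 at 247 and 249 against 146 and 151 CPM (-0.74 ± 0.06) and Gse1, a further LSD1 complex subunit, at 101 and 99.8 against 64.9 and 62.5 (-0.66 ± 0.07). RYBP overexpression called 2 of 13 higher, Rest and Gse1, and none lower, beside 6.02% of all genes; the call of Gse1 was lost without replicate 2 of vehicle and without either DOX library.

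Genes of the other complexes that use HDAC1 and HDAC2 were counted beside the members. In the Rybp knockdown, 11 of 14 SIN3 genes were lower and none higher, with the scaffold Sin3a at 186 and 183 against 120 and 118 CPM (-0.63 ± 0.05), and 6 of 12 NuRD genes were lower and 1 higher, led by Cdk2ap1 at 150 and 170 against 50.8 and 47.0 CPM (-1.71 ± 0.06). None of the 3 MiDAC genes was called there, and 26% of all genes were called lower. With library size alone, 5 of these SIN3 calls (Arid4a, Arid4b, Sap130, Sap18 and Suds3) and 2 of the NuRD calls (Mbd3 and Mta2) were lost. Wdr5 knockdown called 9 of 14 SIN3 genes lower and 3 higher, and 4 of 12 NuRD genes in each direction, where 31.5% of all genes were called in each; the remodeller gene Chd3 fell from 39.3 and 36.6 to 12.6 and 14.4 CPM (-1.50 ± 0.09), and Hdac3, the deacetylase of the NCoR complex, from 65 and 59.9 to 31.4 and 36.5 (-0.88 ± 0.07). All 3 MiDAC genes were higher with shWdr5, whereas Trerf1 (-0.56) and C130039O16Rik (-0.35) were lower in the knockout, Trerf1 in phase disruption (-0.59) and C130039O16Rik in TF-AA (-0.27, lost without either mutant library). In the knockout, 8 of 14 SIN3 and 7 of 12 NuRD genes were lower, with 0 and 2 higher, beside 22.7% of all genes lower. With library size alone, 3 of those SIN3 and 2 of those NuRD calls were lost. Without replicate 2 of Rybp-/-, the SIN3 calls of Arid4b, Sap130 and Sap30 were lost, and the NuRD calls of Gatad2b, Mbd3, Mta2 and Rbbp4. The rTRS DOX libraries went the other way for NuRD, with 7 of 12 higher and 1 lower (23% and 20.4% of all genes), the histone chaperone gene Rbbp7 at 409 and 418 against 607 and 624 CPM (0.57 ± 0.05). In those libraries 2 of 14 SIN3 genes were higher and 3 lower, and the MiDAC gene C130039O16Rik was higher (0.28). With phase disruption 6 of 14 SIN3 genes were lower and none higher, with 6 of 12 NuRD genes lower and 2 higher, and 17% of all genes lower; 1 of those SIN3 and 4 of those NuRD calls were lost with library size alone. In TF-AA 3 of 14 SIN3 and 4 of 12 NuRD genes were lower, beside 16.1% of all genes. The lower calls of Ing1, Gatad2a and Rbbp4 were lost when either mutant library was left out, and that of Mta3 without mutant replicate 2. Among the SIN3 genes there, 1 was higher, Brms1l (0.29). Its call was lost with no filter, with DESeq2, without replicate 2 of WT ESC and without either mutant library. RYBP overexpression called none of the SIN3 and MiDAC genes and 2 of 12 NuRD genes higher, beside 3.63% of all genes. Both of these NuRD calls, of Mta3 and Rbbp7, were lost when either DOX library was left out.

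The KDM5 enzymes also demethylate H3K4. Kdm5b, with Kdm5a and Kdm5c in a list of 3, was lower in phase disruption, at 421 in both libraries against 286 and 289 CPM (-0.55 ± 0.04), and in rTRS DOX, at 888 and 951 against 558 and 579 (-0.69 ± 0.06). It was called lower as well in the Rybp knockdown (-0.21, lost with library size alone), the knockout (-0.25) and TF-AA (-0.28, lost without either mutant library). Kdm5a was higher with shWdr5 (0.49). The calls of Kdm5c were small and did not hold throughout. It was higher with shRybp (0.12, lost with DESeq2, without replicate 1 of shEV and without either shRybp library) and with shWdr5 (0.15, lost without replicate 2 of shWdr5), and lower in phase disruption (-0.15, lost with library size alone and without either WT.RYBP library). For 18 neuronal genes known as REST targets, the direction was mixed. With shRybp, 6 of 16 tested were higher and 4 lower, with the neuropeptide precursor Vgf at 12.3 and 12.5 against 42.2 and 41.1 CPM (1.75 ± 0.08) and the tubulin gene Tubb3 at 287 and 299 against 184 and 182 (-0.68 ± 0.05). With shWdr5, 2 of 14 were higher and 8 lower, in Rybp-/- 5 of 17 and 4, in phase disruption 1 of 15 and 4, in TF-AA 3 of 16 and 2, with RYBP overexpression 0 of 17 and 1, and in rTRS DOX 2 of 17 and 4. The shares of all genes called were 52.7% with shRybp, 63% with shWdr5, 45.5% in Rybp-/-, 33%, 30.5%, 6.02% and 43.4% in the same order; with shWdr5 they were 31.5% in each direction. Without replicate 1 of Rybp-/-, the knockout calls of Bdnf, L1cam, Scn2a1, Syn1 and Tubb3 were lost. Without replicate 1 of RYBP phase disruption, the calls of Bdnf, Grin1, Unc13a and Vgf in that comparison were lost. Tubb3 was the gene lower with RYBP overexpression, at 95.9 and 81.5 against 58.4 and 59.6 CPM (-0.59 ± 0.08).

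Hdac1 has several similar copies in the genome, which bear on its counts. Its transcript of 2038 bases aligned to chr17:78890879-78892881 of mm9, the annotated gene Gm10093, at 98.75% identity over 2004 bases, and, among other places, to chr12:78724039-78726027 at 93.83% identity over 2009 bases, where no gene is annotated. For Gm10093, 74.7% of all 50-base windows also occur in Hdac1, so reads from either can be assigned to the other or lost. Its level was 14.9 to 24.1% of that of Hdac1 in the R1, J1 and rTRS groups and 0.5 to 1.9% in the R7.15 groups. In the phase disruption table it went from 3.52 and 3.49 to 7.61 and 6.93 CPM while Hdac1 was not called. Adding the counts of Gm10093 to those of Hdac1 left every call of Hdac1 in place; the one change of sign was with RYBP overexpression, where the value moved from 0.00 to -0.01 and was not called. No copy of 500 bases or more at 85% identity or more was found for the other 5 members.

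**Figure D4:**
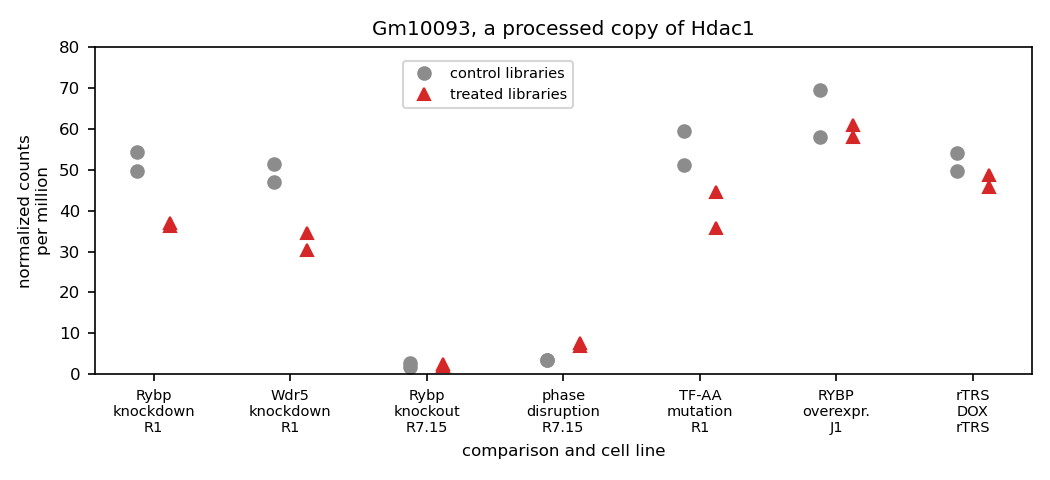
Normalized CPM of Gm10093, the copy of Hdac1, in every library (grey circles control, red triangles treated), by comparison and cell line. Libraries of the R7.15 line lie under 10 CPM, and those of R1, J1 and rTRS lie well above.

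The ChIP-seq peak lists show where chromatin marks and proteins sat on these genes. Of the lists, 10 came from merged replicates and 4, STAT3 in the Rybp-floxed line and RING1B with shEV and shStat3, from a single library each, so no test between conditions was possible. Each peak is given by its fold enrichment over input and by its percentile among all peaks of its own list. All 6 promoters, taken as 2.5 kb on either side of the annotated start (TSS), held a peak of H3K4me3, a mark of active and poised promoters, a peak of H3K27ac, a mark of active regulatory regions, and a peak of WDR5 in Rybp+/+ and in Rybp-/-. Of 22367 protein-coding genes, 65.8% and 65.8% held an H3K4me3 peak, 49.5% and 52.4% an H3K27ac peak and 44.9% and 47.2% a WDR5 peak in those genotypes.

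Rcor1 (chr12:112277561-112354112, plus strand, mm9) had the strongest WDR5 peak among the members, at 24.9-fold in Rybp+/+, the 97.2 percentile of its list, and 37.5-fold in Rybp-/-, the 98.7 percentile. Its summit in Rybp+/+ lay 120 bases before the TSS. The 300 bases that end at the TSS (chr12:112277261-112277560, plus strand) are shown because they hold this summit. Capitals mark a CCAAT box and 5 GC boxes (GGGCGG, searched like the other motifs on both strands). A CCAAT occurred in 35.4% and a GC box in 72.3% of windows of this length around all WDR5 summits of Rybp+/+. Those windows are centred on their summits, unlike the one shown. The GC content was 67.3% against a median of 67.7% in those windows.
Rcor1 upstream of the TSS: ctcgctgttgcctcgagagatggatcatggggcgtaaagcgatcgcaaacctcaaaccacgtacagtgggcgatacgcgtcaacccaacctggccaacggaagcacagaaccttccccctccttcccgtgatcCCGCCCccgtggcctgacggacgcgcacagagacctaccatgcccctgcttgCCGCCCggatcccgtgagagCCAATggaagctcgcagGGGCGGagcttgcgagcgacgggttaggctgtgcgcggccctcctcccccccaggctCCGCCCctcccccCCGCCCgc

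Rcor2 (chr19:7341815-7349715, plus strand) is short, at 7.9 kb, and its promoter H3K4me3 peak, 7482 bases wide in Rybp+/+, began upstream of the TSS and reached 4560 bases into the gene. The H3K27ac peak there was 33.1-fold in Rybp+/+ and 22.8-fold in Rybp-/-, the 98 and 96.3 percentiles. WDR5 was weaker, with a single peak of 6.32-fold (66 percentile) in Rybp+/+ where Rybp-/- had separate peaks of 5.0-fold (48.6 percentile) and 2.81-fold.

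Kdm1a (chr4:136106455-136158638, minus strand) and Hdac1 (chr4:129193348-129219957, minus strand) stood opposite in their marks. The Kdm1a promoter had H3K4me3 at 70.2-fold (99.8 percentile) in Rybp+/+ and 49.3-fold (92 percentile) in Rybp-/-, H3K27ac at 49-fold and 35.1-fold, and WDR5 at 7.6-fold (77.1 percentile) and 4.85-fold (46.1 percentile). The Hdac1 promoter had H3K4me3 at 20-fold (69.5 percentile) in Rybp+/+ and 59.5-fold (97.4 percentile) in Rybp-/-, H3K27ac at 13-fold (87.8 percentile) and 30.8-fold (98.4 percentile), and WDR5 at 8.59-fold and 10-fold. In RNA from the same genotypes, Kdm1a was lower and Hdac1 slightly higher in Rybp-/-. Hdac2 and Rcor2 ran otherwise: their H3K27ac was 18.8-fold and 33.1-fold in Rybp+/+ against 13.2-fold and 22.8-fold in Rybp-/-, and their WDR5 6.35-fold and 6.32-fold against 4.52-fold and 5.0-fold, while both mRNAs were called higher. Whether these peak values differ beyond replicate error cannot be tested from merged peaks. Rcor3 (chr1:193922652-193961892, minus strand), the member with the lowest mRNA, had strong promoter H3K4me3 all the same, at 55.7-fold and 61.1-fold, the 96.7 and 97.9 percentiles, with H3K27ac at 6.4-fold and 10.5-fold.

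**Figure D5:**
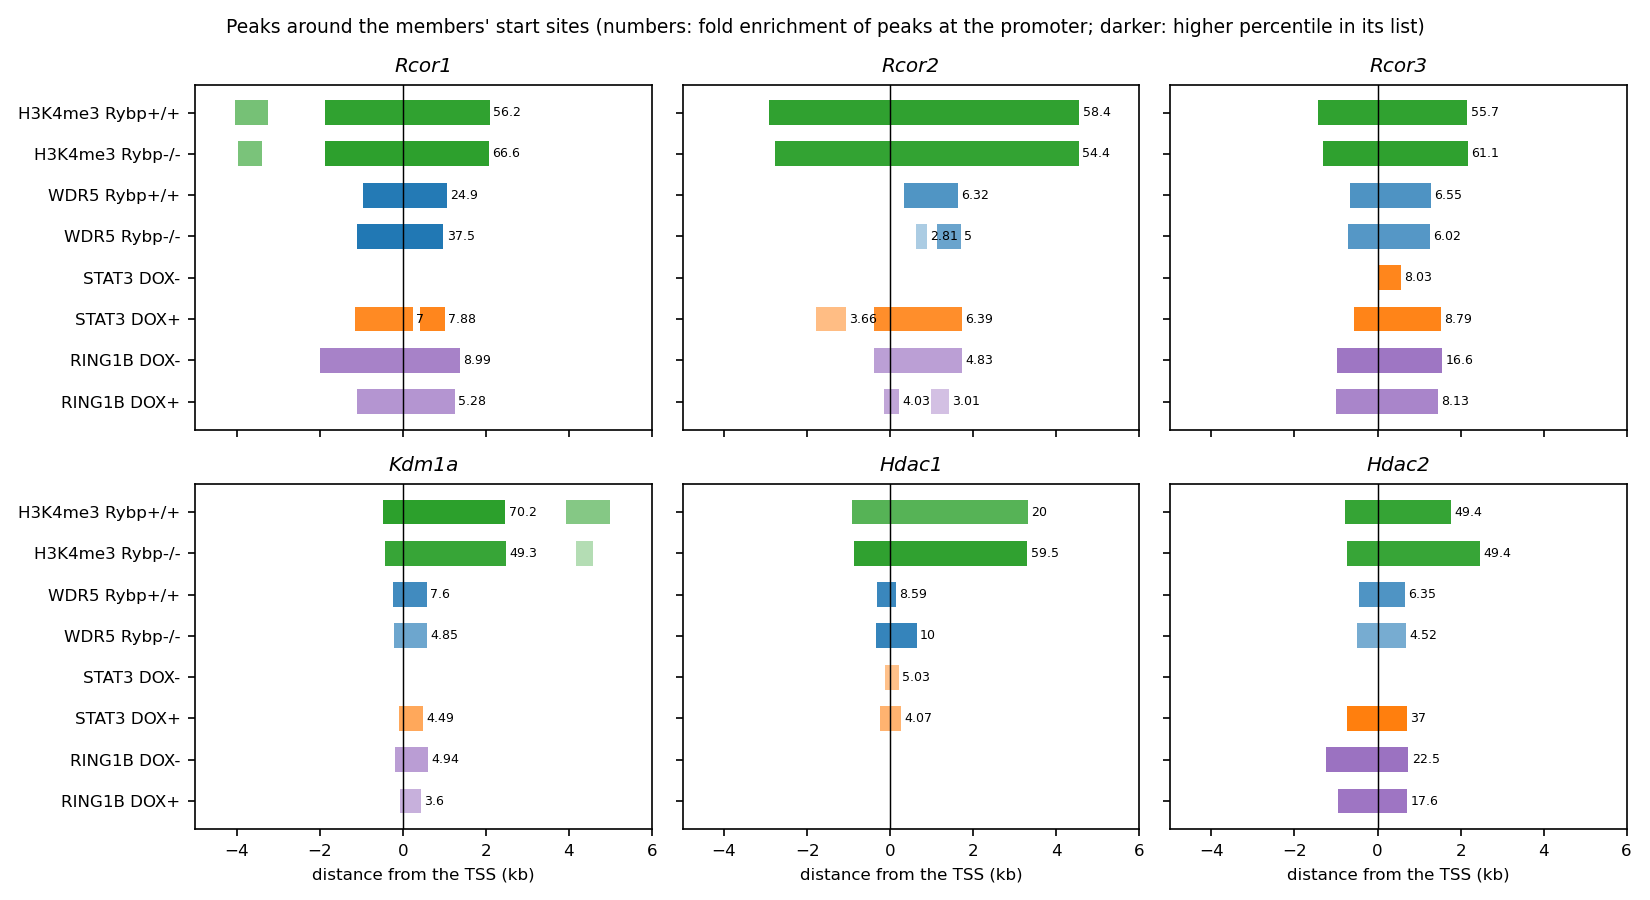
Peaks within 5 kb of the TSS of each member in 8 of the 14 lists, drawn to scale against distance from the TSS; numbers give the fold enrichment of peaks at the promoter and darker colour a higher percentile in the list. STAT3 peaks in DOX+ stand at all 6 genes, with Hdac2 at 37-fold, and RING1B peaks at all but Hdac1.

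STAT3, the transcription factor that acts downstream of LIF in ESCs, was mapped in Tet.Rybp.Stat3 cells without and with DOX. In DOX+ all 6 promoters held a STAT3 peak, where 54.9% of protein-coding genes did; in DOX- only Rcor3 and Hdac1 did, where 8.31% did. The DOX+ list is much longer, with 30663 peaks against 2816. The peak at Hdac2 (chr10:36694350-36721695, plus strand) was 36.9-fold enriched and ranked 5 of the 30663 peaks, and that gene had none in DOX-. Taking the strongest promoter peak of each, the other members ran from 4.07-fold at Hdac1 to 8.79-fold at Rcor3. The Hdac2 summit lay 340 bases before the TSS, near the summit of WDR5 in Rybp+/+ at 333 bases before it, whereas the WDR5 summit in Rybp-/- lay 106 bases after the TSS. The window centred on the STAT3 summit (chr10:36693860-36694159, plus strand) is shown since the peak is among the strongest of its list. It holds 2 E-boxes (CACGTG, in capitals), which occurred in 9.05% of such windows, and no match to TTCNNNGAA, the letters of a STAT site, which occurred in 5.76% of all windows and in 12 of the 100 strongest.
Hdac2 STAT3 DOX+ summit: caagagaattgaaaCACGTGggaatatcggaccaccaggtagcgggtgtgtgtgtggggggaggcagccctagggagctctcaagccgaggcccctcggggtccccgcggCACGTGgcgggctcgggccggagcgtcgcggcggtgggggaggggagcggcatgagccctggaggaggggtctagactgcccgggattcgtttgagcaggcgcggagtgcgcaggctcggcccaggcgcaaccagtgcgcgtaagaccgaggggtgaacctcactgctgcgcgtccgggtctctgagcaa

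In the Rybp-floxed line, STAT3 peaks were few. In Rybp+/+ they stood at the promoters of Rcor1, Rcor2 and Kdm1a, at 2.53-fold, 4.51-fold and 4.25-fold (0.7, 55.9 and 47.1 percentiles). The Rcor1 peak was thus among the weakest of its list. In Rybp-/- only Rcor2 held one, at 4.21-fold (44 percentile). Of protein-coding genes, 6.94% and 5.9% held a STAT3 peak in those genotypes. RING1B, the catalytic subunit of Polycomb repressive complex 1, had promoter peaks at all members but Hdac1 in each of the 4 lists, where 39.4 to 52.4% of protein-coding genes had one. Hdac2 held the strongest, at 22.5-fold in DOX- and 17.6-fold in DOX+ (89.3 and 85.7 percentiles), and at 14.8-fold with shEV and 13.9-fold with shStat3 in R1 (83.9 and 78.8 percentiles). Rcor3 followed in DOX- and DOX+, at 16.6-fold and 8.13-fold, and Kdm1a was lowest in DOX+, at 3.6-fold. The RING1B peak near Hdac1 lies beyond the other end of the gene, at the start of its neighbour Marcksl1.

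Each member's 7 log2 fold changes were also compared with those of 9071 protein-coding genes, by Euclidean distance, as a description. Nearest to Rcor2 were Tuba1b (0.19), Caprin1 (0.22) and Acadm (0.24), to Kdm1a Zfp60 (0.13), Ccnt2 (0.18) and Tardbp (0.20), and to Hdac1 Mex3a (0.24) and the proteasome genes Psmd7 (0.24) and Psmc4 (0.25). Hdac2 was nearest to Sept11 (0.24), Nmd3 (0.24) and Pole4 (0.27). Rcor1 had the most distant neighbours, Rbmx (0.35), Cdc25c (0.45) and Mpv17l2 (0.46), and Rcor3 was nearest to Cuta (0.30), Stx1a (0.31) and Snx14 (0.34). The median distance to all of these genes was 0.92 to 1.14. Among the members themselves, Kdm1a and Hdac2 (0.54) and Rcor2 and Hdac1 (0.56) lay closest, and Rcor1 and Hdac1 (1.27) farthest apart. The 7 points share the shEV libraries in the 2 knockdown comparisons.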

How the data were processed

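Whole-gene RNA-seq counts were deposited by the authors in 7 tables (Trim Galore, STAR and HTSeq on mm9, per the submitters' processing notes; the study's methods give versions 0.6.6, 2.6.1b and 2.0.1 for the knockout and knockdown data, and for the other 4 tables the versions, like the strand setting of all, are not given in the sources used here). The rows for reads on no gene held 13.73 to 26.47% where listed, and stayed out of library sizes. Control columns named WT, NTC or EV in the tables were matched to the one control group of their line and label. A column whose name starts with S5 was matched to replicate 2 of rTRS DOX by its table, treatment and replicate number. Counts were tested within each table with edgeR 4.0.16 (TMM, filterByExpr, quasi-likelihood test, Benjamini-Hochberg over all genes, threshold 0.05); CPM are TMM-normalized. On simulated counts the test recovered 97% or more of changes of 1 and 75 to 98% of changes of 0.5 on the log2 scale (75% in TF-AA). Of its calls there, 3.7 to 9.4% were false, most in TF-AA. The simulation changed only genes of at least 5 CPM, and fewer of them than were called in any real comparison. Its spread followed the trend with level, without differences between genes. These shares therefore describe the simulation, and do not carry over to these data or to Rcor3 where it lay under 5 CPM. The chi-square per gene between replicates was 2.1 to 13.1, so each library was counted once.

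Peak lists give the fold enrichment (a ratio over input) and the −log10 q-value that the authors deposited from MACS2 2.1.1, run on merged replicates, or on 1 library for STAT3 in the Rybp-floxed line and RING1B with shEV and shStat3, after Bowtie2 2.3.5.1 and removal of duplicates with samtools 1.3.1 at a stated FDR of 0.01 (for the STAT3 and RING1B lists of the DOX and Stat3 knockdown experiments the settings are not given in the sources used here); 1.05 to 8.72% of peaks in each list lie under that threshold. Positions and genes come from GENCODE annotation of mm9, and sequences from the mm9 genome. Exon lengths are those deposited with the counts. The RYBP overexpression counts came without lengths, and those of the Rybp knockdown counts were used. Copies were searched with BLAST+ 2.17.0.

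All members were reported; partners were named freely, and from each other list up to 3 called genes with the largest change, at least 5 CPM and no overlap between groups. The fit of knockdown against knockout and the sum of Hdac1 and its copy were added after seeing the data. The members and lists were chosen with earlier results of these data known. Alternatives were DESeq2 size factors, library size alone, no filter, DESeq2 1.42.0, a replicate block, a fold threshold and leaving out each library; for peaks, −log10 q of at least 5 and 2.5 kb around the TSS. Authors' own comparisons were not used. One sequence window is not reported here.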

Additional observations from a re-analysis of the deposited data

Results flagged for a closer look

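The effects of Rybp knockdown in R1 and Rybp knockout in R7.15 differed for 5 members by edgeR's quasi-likelihood test of the difference, with Benjamini-Hochberg adjustment and 2 libraries per group. Knockdown minus knockout was -0.99 for Rcor2 (adjusted p = 6.7e-12), -0.68 for Hdac2 (5.4e-09), -0.67 for Hdac1 (1.3e-09), -0.31 for Rcor1 (0.00086) and -0.20 for Kdm1a (0.0043) on the log2 scale, and 40.5% of 18203 genes differed. With library size alone, Rcor1 (-0.16, adjusted p = 0.081) and Kdm1a (-0.04, adjusted p = 0.58) were not called. Hdac2 was lower in the knockdown and higher in the knockout, and Kdm1a was lower in both; the higher knockout calls of Rcor2 and Hdac1 were lost without single libraries. The test was chosen after seeing the data, and cell line, method of RYBP loss and sequencing table cannot be told apart from one another.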

How the results depend on the processing

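With 2 libraries per group, the small calls were the least certain; the cause of a changed call was not tested beyond the number of libraries or genes left. The calls of Rcor2, Hdac1, Kdm1a, Hdac2 and Rcor1 in the Rybp knockdown, of Hdac1, Hdac2 and Rcor2 in the Wdr5 knockdown, of Kdm1a and Hdac2 in the knockout, of Rcor1 in phase disruption and of all 4 members called in rTRS held under every alternative of the test, normalization, filter, block and libraries. In all, 466 of the single-gene values kept their direction and side of the threshold, 14 gained and 9 lost a call and 16 changed sign; of the counts of genes, members and peaks, 131 moved little and 30 moved further.

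Reversals fell on values near 0, and where a library was left out the lowest and highest values are given. With RYBP overexpression, Hdac1 was -0.0139 with library size alone, -0.0246 without vehicle replicate 2, -0.0376 without DOX replicate 1 and -0.0116 with its copy added, with up to 0.0452 without a library; Hdac2 was -0.0246 without DOX replicate 2 and up to 0.0922, Kdm1a -0.0107 and Rcor2 0.0564 without vehicle replicate 1 (to 0.0691 and -0.152 without vehicle replicate 2), and Rcor1 0.0188 and 0.088 without vehicle or DOX replicate 2 and down to -0.108. In TF-AA, without WT ESC replicate 1, Hdac2 was -0.0446, Rcor1 -0.0495, Rcor2 0.0425 and Rcor3 0.0653, and without replicate 2 they were 0.124, 0.0696, -0.177 and -0.145; Rcor1 was -0.0357 without TF-AA replicate 1 and Rcor2 0.00151 without TF-AA replicate 2. Rcor3, knockdown minus knockout, was 0.0379 with library size alone.

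Requiring a log2 change above 1 left 0 members in every comparison that had any, and 2088 genes with Rybp knockdown, 2815 with Wdr5 knockdown, 1330 in the knockout, 986 in phase disruption, 1176 in TF-AA, 135 with RYBP overexpression and 1953 in rTRS. In phase disruption 2 members were called with library size alone, 3 with a replicate block and 1 to 3 when a library was left out, and DESeq2 called 2980 genes against 4814. Leaving out a library gave 0 to 1 members and 2724 to 4767 genes in TF-AA, and 0 to 1 members and 406 to 1566 genes with RYBP overexpression. At the loci, H3K27ac peaks fell from 104 to 62 at −log10 q of at least 5 and to 13 within 2.5 kb of the TSS, H3K4me3 peaks from 28 to 12 within 2.5 kb, and RING1B peaks of the Stat3 knockdown from 13 to 6 at −log10 q of at least 5.

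With the replicate block, 5 members were called in the Rybp knockdown, 4 with Wdr5 knockdown, 4 in the knockout, 1 in TF-AA, 0 with RYBP overexpression and 5 in rTRS. Same-numbered libraries deviated together with a correlation of -0.019 to 0.374, and as each comparison has only 2 pairs the numbers were taken to name the samples, not to pair them.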
